A study of Mus musculus with 258 samples.

Results

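Ngn3-high cells of the embryonic dorsal pancreas were compared with Ngn3-low cells across all genes, in 4 bulk RNA-seq libraries out of the 258 samples of the series. Both populations came from mouse embryos at E13.5 (the embryonic day) and were sorted by how bright a GFP reporter of Neurog3 was, the gene whose protein is Ngn3. Each population has 2 libraries, chosen by their column labels. Another population (Ins1-RFP positive cells at E17.5, 2 libraries) enters the same fit to help estimate the spread. It thereby also enters the choice of genes tested and the scaling. For comparison, 49 single Ngn3-low and 59 single Ngn3-high cells labelled wild type (WT), from dorsal pancreas at E13.5, were each summed into 1 sample, beside 69 single Ngn3-low cells of genotype Pdx1-Cre; Jmjd3 fl/fl, in which a recombinase active in pancreatic progenitors removes a floxed Jmjd3 (Kdm6b). No strain, sex or further allele is given for the bulk groups, and a reporter gate does not by itself separate pancreatic progenitors from other cells that carry little reporter.

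Endocrine cells of the pancreas arise from a branched epithelium whose trunk holds bipotent progenitors of ducts and islets. A progenitor that turns on Neurog3, a basic helix-loop-helix transcription factor, leaves the cell cycle and the epithelium and starts the endocrine programme, while its neighbours stay in the epithelium. Endocrine cells share much of their machinery with neurons, including excitable membranes, regulated secretion and neuronal splicing factors, although both arise from different germ layers.

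The 4 libraries held 17760214 and 12225838 reads in genes for Ngn3-low cells and 16860544 and 11957415 for Ngn3-high cells, and 18651 to 20063 genes had at least 1 read. Levels are normalised read counts scaled to library size (CPM), and differences are fitted log2 fold changes of Ngn3-high over Ngn3-low with their standard errors (SE). Of 15684 genes tested, 4400 rose (28.1%) and 4725 fell (30.1%) at an adjusted p under 0.05, and the median over all genes tested was -0.01. At least 2-fold changes comprised 2248 rises (14.3%) and 3142 falls (20%), and at least 8-fold changes 734 rises (4.68%) and 1149 falls (7.33%). Between the libraries of 1 group the median gene differed by 0.10 (Ngn3-low) and 0.17 (Ngn3-high) in log2(CPM + 1). These medians cover only genes at 10 CPM or more in that group (10188 and 9527 genes). The labels do not say whether the 2 libraries of a group came from separate litters, and p-values therefore rest on the spread between libraries alone.

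The group labels were checked on Neurog3, Neurod1 and Sox9, with Kdm6b given beside them. The cells were sorted on a Neurog3 reporter, so the order of Neurog3 itself checks the labels only. Neurog3 (chromosome 10, 62133090 to 62134763) stood at 185 and 149.7 CPM in Ngn3-low and at 1199.5 and 1085 CPM in Ngn3-high libraries, so the Ngn3-low gate also held Neurog3 RNA. Neurod1, an early target of Neurog3 in endocrine precursors, stood at 2.86 and 2.59 CPM against 257 and 329 CPM. Sox9, a factor of trunk progenitors, was at 265 and 267 CPM against 58.8 and 51.8 CPM. Kdm6b, which encodes Jmjd3, rose from 173 and 161 CPM to 350.4 and 315 CPM, a log2 fold change of 0.99 ± 0.12 SE (edgeR adjusted p = 5.0e-05).

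The Ngn3-low libraries held RNA of other cell types, which bears on how each fall can be read. All 27 tested markers of macrophages and other white blood cells fell, against 30.1% of all genes tested, with a median log2 fold change of -8.94, and their summed level was 6515 and 5312 CPM in Ngn3-low against 52.6 and 33.6 CPM in Ngn3-high libraries. Summed over the 49 single WT Ngn3-low cells, the same markers reached 29.01 CPM. Mrc1, the mannose receptor of macrophages, stood at 1694 and 1432 CPM in bulk Ngn3-low cells and at 3.88 and 0.832 CPM in Ngn3-high cells, against 0.402 CPM in single Ngn3-low cells. Csf1r, the receptor for macrophage colony-stimulating factor, stood at 1015 and 826 CPM against 2.75 and 0.749 CPM, with 1.02 CPM in single Ngn3-low cells. Fcgr1 (a high-affinity Fc receptor) and Cd53 (a leukocyte tetraspanin) had no read in either Ngn3-high library, and were at least 571-fold and 565-fold lower there, taking 3 counts over the group as the floor. Among the 49 single cells, 1 had 5 or more of these markers at 10 CPM or more, and the highest summed level in any cell was 193 CPM.

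Endothelial markers showed the same arrangement at a lower level. All 21 tested members fell (median log2 fold change -5.89), from a sum of 659 and 702 CPM to 28.5 and 25.6 CPM, with 49.98 CPM in single Ngn3-low cells. Kdr, a receptor for vascular endothelial growth factor, went from 82.7 and 94.4 CPM to 1.08 and 0.749 CPM, and single Ngn3-low cells had 0.0619 CPM. Plvap, of endothelial fenestrae, went from 41.3 and 44.2 CPM to 0.597 and 0.250 CPM. None of the 49 single cells (0 cells) had 5 endothelial markers at 10 CPM, and the most in 1 cell was 3.

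Markers of further cell types were counted in the same way. Ednrb, the endothelin receptor that marks neural crest and some endothelium, fell from 227 and 206 CPM to 0.657 and 0.915 CPM (log2 fold change -8.12 ± 0.39 SE) and had 0.278 CPM in single Ngn3-low cells, while 4 of the 10 tested neural crest and glia markers rose. Of those 4, Ret rose from 18.97 and 12.6 CPM to 236 and 207 CPM, and single Ngn3-high cells carried it too (164 CPM). Mesenchymal markers summed to 846 and 693 CPM against 280 and 331 CPM, and to 351 CPM in single Ngn3-low cells. Of the 5 at 10 CPM or more in bulk Ngn3-low cells, 4 had under 10% of that level in single Ngn3-low cells. Only Vim, an intermediate filament gene, passed among the 13 tested mesenchymal members. When the 4 libraries were fitted alone, 8 of these members fell, and without E17.5 library 1 or 2, 7 or 6 did. Albumin (Alb) stood at 32.2 and 104 CPM in Ngn3-low libraries but at 3.11 and 0.250 CPM in Ngn3-high ones, and did not pass. Red blood cell markers totalled 31.3 to 36.6 CPM in every library, with 6 of 11 lower in Ngn3-high cells and Slc4a1, an anion exchanger, higher (4.20 and 5.11 CPM against 25.4 and 22.1 CPM). Of 10 tested platelet, mast cell and granulocyte markers 6 fell and only Kit rose, and 3 of 4 tested lymphocyte markers fell. Smooth muscle and pericyte (1 of 8 fell, 5 without either E17.5 library, 2 without either Ngn3-low library and 0 without Ngn3-high library 1), mesothelium (1 of 6 rose and 2 fell), gut (2 of 7 rose) and liver markers (1 of 12 rose and 6 fell) complete the lists, and 5 of 8 peripheral neuron markers rose. Leaving out Ngn3-high library 2 left 2 of the liver falls, leaving out either Ngn3-low library left 0 of the mesothelial falls (its rises ran from 0 to 2 over the libraries left out), and 3 gut markers fell without Ngn3-low library 1. What part cells of other lineages had in each bulk fall was not tested, and in bulk RNA fewer cells of a type and less RNA per cell cannot be told apart.

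Single cells of the same gate gave a second measure of each gene. Of 10188 genes at 10 CPM or more in bulk Ngn3-low cells, 631 (6.19%) had a summed level in single WT Ngn3-low cells under 10% of the bulk level. Of these genes, 473 fell in bulk Ngn3-high cells, 69 rose and 89 did not pass, and 354 fell at least 8-fold. They made up 5.83% and 5.57% of all CPM in the Ngn3-low libraries and 3.97% and 4.01% in the Ngn3-high ones. In the 69 single Ngn3-low cells with Jmjd3 deleted, 556 of the 631 were again under 10% of the bulk level. The other 9557 genes rose in 2701 cases and fell in 3026, and their median log2 fold change was -0.01.

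**Figure D1:**
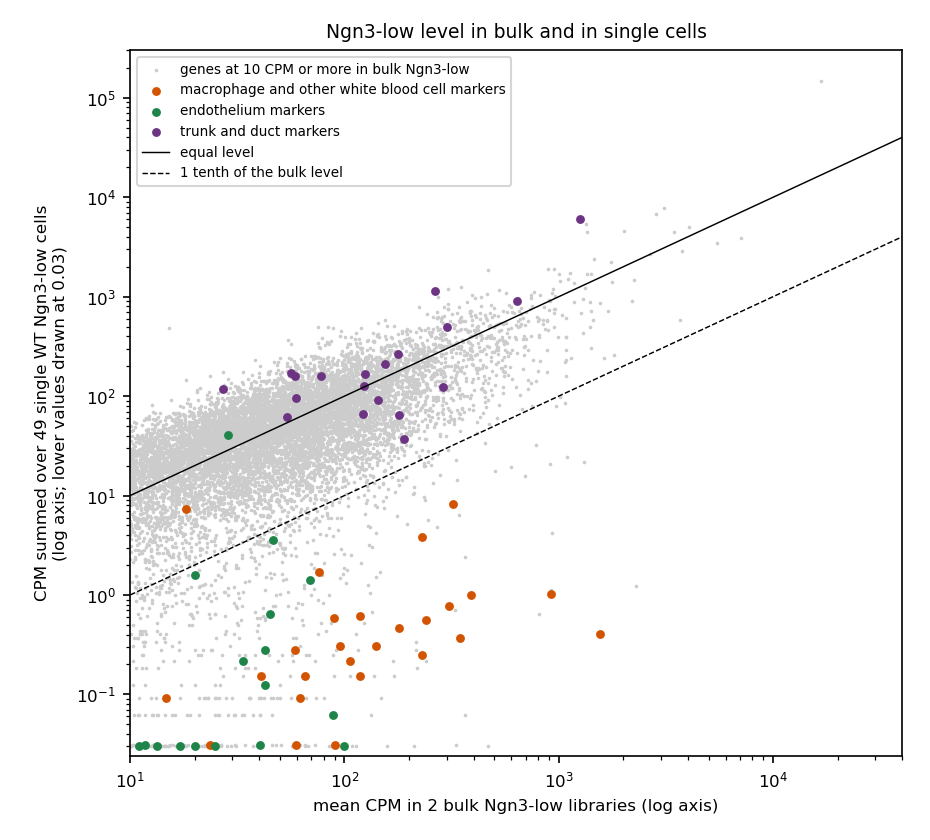
Level of each gene in bulk Ngn3-low cells (x axis, mean CPM of 2 libraries, log axis) against its level summed over 49 single WT Ngn3-low cells (y axis, CPM, log axis), for genes at 10 CPM or more in bulk. Of the macrophage markers shown, 25 of 26 lie below the dashed line at 10% of the bulk level, as do 16 of 17 endothelial markers. Of 19 trunk and duct markers, 0 do. The trunk and duct list summed to 4249 and 4360 CPM in bulk and to 10544.5 CPM in single Ngn3-low cells.

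The largest falls separated into these classes. Of 658 genes at 10 CPM or more that fell at least 8-fold, 354 (53.8%) were among the genes hardly read in single Ngn3-low cells, and the other 304 were not. Of those 304, 299 were also lower in single Ngn3-high than in single Ngn3-low cells, 282 of them at least 2 times lower. Keeping genes by their level in single Ngn3-low cells favours that order beforehand. The same holds for such counts in the lists below, so they are descriptions only. The 12 largest falls among genes at 10 CPM or more all had no read in Ngn3-high libraries and under 2 CPM in single Ngn3-low cells. They included Trem2, Btk, Tlr4 and P2ry13, which act in myeloid cells. Among the rises, 386 of 390 genes at 10 CPM or more that rose at least 8-fold were higher in single Ngn3-high cells. Over 10638 genes the bulk and single-cell differences of log2(CPM + 1) had a Pearson r of 0.813. It is a description across genes, which are not independent replicates. Genes under 10 CPM in both bulk groups, or under 1 CPM in both single-cell groups, were left out. Btk, with 0 CPM in both single-cell groups, is 1 of those left out.

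**Figure D2:**
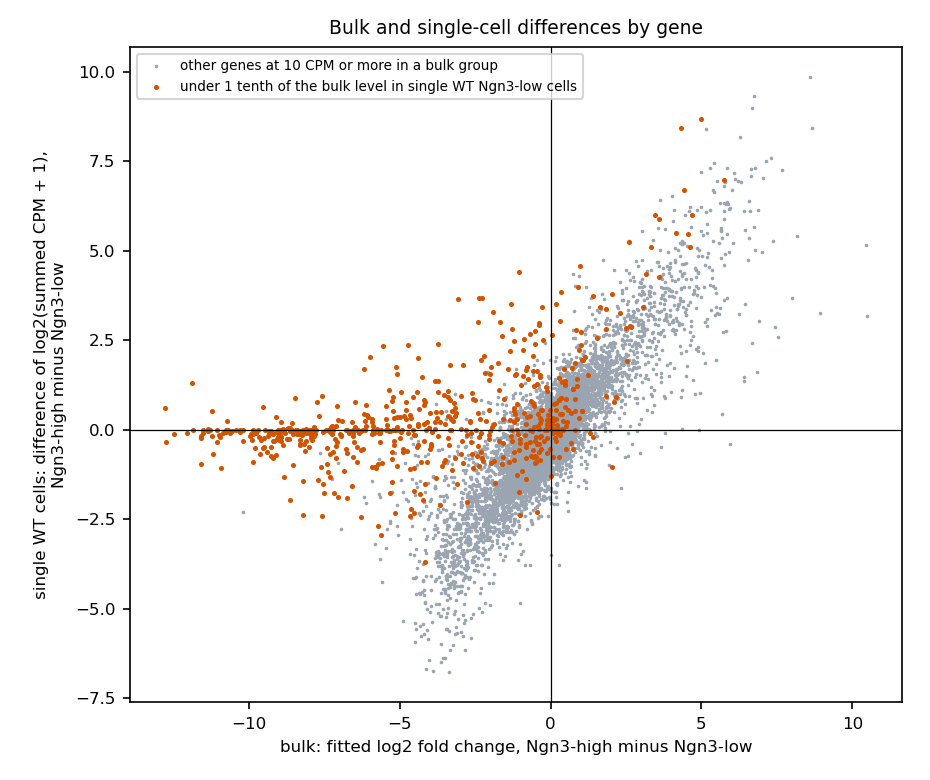
Bulk log2 fold change (x axis) against the single-cell difference (y axis) for genes at 10 CPM or more in a bulk group. The single-cell difference is of log2(summed CPM + 1) between 59 Ngn3-high and 49 Ngn3-low WT cells. The 631 genes under 10% of their bulk level in single Ngn3-low cells are in orange. The r of 0.813 in the text was taken over 10638 genes, not over all points drawn.

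Fev and other transcription factors were among the largest rises. Fev, a factor of endocrine precursors and of serotonin neurons, stood at 0.431 and 0.687 CPM in Ngn3-low cells and at 195 and 248 CPM in Ngn3-high cells, a log2 fold change of 8.66 ± 0.23 SE (edgeR adjusted p = 3.7e-09). Nhlh1, a helix-loop-helix factor of young neurons, went from 0.701 and 0.458 CPM to 103 and 97.5 CPM, a rise of 7.37 ± 0.21 (SE). Lhx1, a LIM homeodomain factor, went from 0.970 and 0.687 CPM to 134 and 135 CPM, and its neighbour Lhx1os had no read in Ngn3-low cells against 12.8 and 11.2 CPM, which is at least 127-fold higher. Single Ngn3-low cells held at most 0.278 CPM of each.

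Among 27 tested neural-type transcription factors, 16 rose and 7 fell, with a median log2 fold change of 2.01 against -0.01 over all genes tested. St18 (a zinc finger factor of the Myt1 family) rose from 3.88 and 2.14 CPM to 217 and 248 CPM, and its relative Myt1l from 0.108 and 0.305 CPM to 7.58 and 11.1 CPM. Runx1t1, a transcriptional corepressor, rose from 3.99 and 3.97 CPM to 184 and 228 CPM. Neurod2 reached 30.3 and 33.5 CPM from 0.754 and 0.305 CPM. Fallen members included Lmo2 and Pou2f2, known from blood cells, and 3 of the 5 falls at 10 CPM or more were genes hardly read in single Ngn3-low cells. Sox4 and Sox11, which act early in many precursors, did not pass (log2 fold changes -0.23 and 0.15).

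Of 16 tested genes of neuronal RNA-binding proteins, 15 rose and none fell (0 calls), with a median log2 fold change of 3.16, and all 15 were also higher in single Ngn3-high cells. Celf3, a splicing regulator of nervous tissue, stood at 9.81 and 7.86 CPM in Ngn3-low cells and at 642 and 529 CPM in Ngn3-high cells (6.04 ± 0.23 SE). Srrm4, which drives inclusion of neuronal microexons, went from 0.485 and 0.458 CPM to 27.2 and 27.6 CPM (5.83 ± 0.28 SE). Rbfox3, known as the neuronal antigen NeuN, went from 1.56 and 1.14 CPM to 86.1 and 63.7 CPM, and Celf6 from 0.216 and 0.153 CPM to 14.2 and 15.6 CPM. Elavl4, which stabilises neuronal messages, went from 2.69 and 1.30 CPM to 33.8 and 47.8 CPM. Nova1 did not pass, at 5.44 and 5.95 CPM against 7.11 and 8.91 CPM.

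Rest fell in the same comparison. It encodes the repressor that keeps neuronal genes silent in other tissues (chromosome 5, 77265494 to 77286432), and Srrm4 is known to splice its message. Rest stood at 168 and 161 CPM in Ngn3-low cells and at 7.23 and 10.8 CPM in Ngn3-high cells, a log2 fold change of -4.21 ± 0.23 SE (edgeR adjusted p = 6.3e-07). Single cells showed 159 CPM in the Ngn3-low and 5.47 CPM in the Ngn3-high group, with 46 of 49 and 4 of 59 cells at 10 CPM or more. Its cofactor genes Rcor1 and Rcor2 rose (0.56 and 1.41). Mbnl1, a splicing factor of non-neuronal tissue, fell from 141 and 129 CPM to 22.3 and 27.5 CPM, while Ptbp1, which represses neuronal exons, fell by 0.34. The epithelial splicing factors Esrp1 and Esrp2 rose by 0.79 and 0.38.

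Promoter sequences were read for these 2 lists because Neurog3 and its relatives bind E-box letters. Sequences are from the RefSeq promoter table of build GRCm38.p6, which gave windows of 300 bases (250 before to 50 after a start) for 11205 of the genes tested. Of 18 members of both lists that rose at least 8-fold (4.68% of all genes tested did), 14 had a window, and 10 of these held CAGATG or CAGCTG on either strand in at least 1 window. Among all genes with a window the share was 29.65%, and among the 507 genes that rose at least 8-fold it was 42.4%; a gene with several windows has more chances. The 6 members with a single window that held these letters are given as the 250 bases before the start used in that table, with the matched letters in capitals. That start is the outer end of the gene for Neurod2 and Nhlh1, and lies 123, 745, 777 and 11246 bases inside the gene for Elavl3, Srrm4, Tox3 and Srrm3. They lie at chr9:22052024-22052273 (Elavl3, minus strand), chr11:98329646-98329895 (Neurod2, minus strand), chr1:172057597-172057846 (Nhlh1, minus strand), chr5:135817856-135818105 (Srrm3, plus strand), chr5:116591818-116592067 (Srrm4, minus strand) and chr8:90348253-90348502 (Tox3, minus strand).
Elavl3: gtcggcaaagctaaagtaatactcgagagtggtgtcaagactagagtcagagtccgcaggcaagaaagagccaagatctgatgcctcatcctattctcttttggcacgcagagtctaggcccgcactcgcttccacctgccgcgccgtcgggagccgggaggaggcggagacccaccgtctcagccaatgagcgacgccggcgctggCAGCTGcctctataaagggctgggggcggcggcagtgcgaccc
Neurod2: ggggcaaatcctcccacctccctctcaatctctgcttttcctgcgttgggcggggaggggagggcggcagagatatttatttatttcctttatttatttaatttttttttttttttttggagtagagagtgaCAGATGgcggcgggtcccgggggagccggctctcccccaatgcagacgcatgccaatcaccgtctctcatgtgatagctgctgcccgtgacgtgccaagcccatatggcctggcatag
Nhlh1: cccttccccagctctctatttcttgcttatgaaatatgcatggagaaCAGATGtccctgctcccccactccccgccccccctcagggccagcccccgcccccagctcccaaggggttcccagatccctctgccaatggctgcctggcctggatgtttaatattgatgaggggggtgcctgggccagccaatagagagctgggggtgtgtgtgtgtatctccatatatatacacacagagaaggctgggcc
Srrm3: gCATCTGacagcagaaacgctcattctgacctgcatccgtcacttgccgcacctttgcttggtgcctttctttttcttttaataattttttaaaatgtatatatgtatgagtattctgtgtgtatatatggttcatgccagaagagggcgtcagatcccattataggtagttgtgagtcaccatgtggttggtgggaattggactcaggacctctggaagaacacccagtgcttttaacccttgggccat
Srrm4: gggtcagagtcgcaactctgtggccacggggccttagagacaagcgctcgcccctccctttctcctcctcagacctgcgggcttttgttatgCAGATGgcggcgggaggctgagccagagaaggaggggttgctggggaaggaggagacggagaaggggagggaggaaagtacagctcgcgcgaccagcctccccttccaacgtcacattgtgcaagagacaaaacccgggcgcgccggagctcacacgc
Tox3: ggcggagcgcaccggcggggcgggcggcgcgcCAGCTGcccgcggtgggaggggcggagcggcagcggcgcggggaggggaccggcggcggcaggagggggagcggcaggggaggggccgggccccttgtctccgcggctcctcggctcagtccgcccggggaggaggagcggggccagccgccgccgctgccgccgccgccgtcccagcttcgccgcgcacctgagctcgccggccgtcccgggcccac

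In these sequences Neurod2, Nhlh1 and Srrm4 carry CAGATG, Srrm3 carries its other strand CATCTG, and Elavl3 and Tox3 carry the palindrome CAGCTG. Elavl3 rose from 0.485 and 0.534 CPM to 9.79 and 9.99 CPM, Srrm3 from 0.377 and 0.687 CPM to 13.9 and 11.4 CPM, and Tox3 from 43.8 and 37.2 CPM to 482 and 544 CPM. Over single windows, CAGCTG stood in 15.9% of all 14406, in 24.6% of those of genes that rose at least 8-fold and in 19.4% of those that fell at least 8-fold. The shares for CAGATG were 12.1%, 17.7% and 16.2%. The letters GTTGCC, part of the site of RFX factors, searched with its other strand GGCAAC, was in 12.7% of all windows, in 14.7% of the risers' and in 9.59% of the fallers'. TEAD letters GGAATG (other strand CATTCC) stood in 12.5%, 12.2% and 16.2%, and AP-1 letters TGANTCA in 5.26%, 6.495% and 9.09%. Windows of 1 gene can overlap, and GC content was 60.2% in all windows, 58.8% in the risers' and 54.9% in the fallers'. These matches are descriptions and show no binding.

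**Figure D3:**
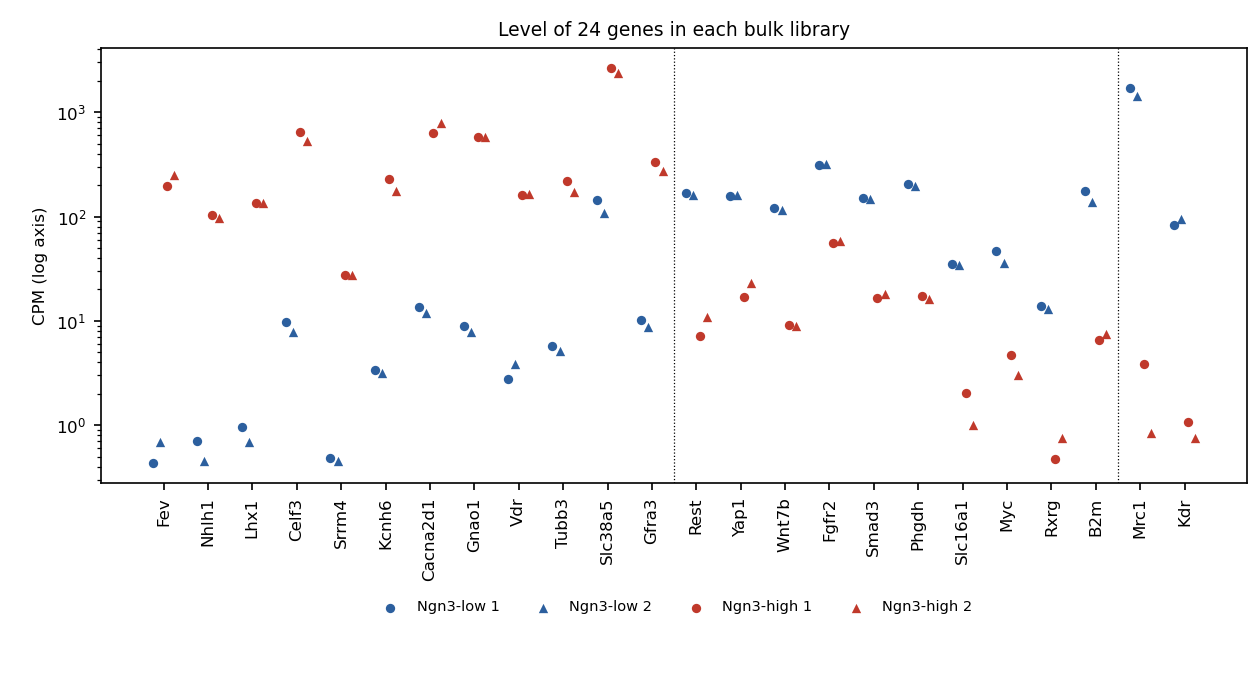
Level of 24 genes in each of the 4 bulk libraries (y axis, CPM, log axis), with circles for replicate 1 and triangles for replicate 2 and blue for Ngn3-low, red for Ngn3-high. The first 12 genes rose and the next 10 fell (the groups did not overlap, as for 80.1% of all genes tested), and the last 2 (Mrc1 and Kdr) are markers of macrophages and endothelium.

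Cytoskeletal genes of neurons rose in 19 of 30 tested cases and fell in 7 (median 1.12). The falls numbered 3 or 4 when Ngn3-low library 1 or 2 was left out, and 4 when Ngn3-high library 2 was. Tubb3, the neuronal tubulin, went from 5.71 and 5.11 CPM to 218 and 172 CPM, and Map1b, a microtubule-associated protein of growing processes, from 39.99 and 39.7 CPM to 909 and 1002 CPM. Dpysl5, a collapsin response mediator, rose from 11.53 and 7.93 CPM to 246 and 195 CPM. Not every neuronal cytoskeletal gene took part, as Stmn2 stood at 1.46 and 1.98 CPM against 0.179 and 0.166 CPM and Gap43 fell by 1.63.

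Slit, Robo and netrin genes rose in 7 of 18 cases (38.9%) and fell in 5 (27.8%), with a median of 0.06. Over all genes tested the shares were 28.1% and 30.1%. Unc5a, a netrin receptor, rose from 3.72 and 2.67 CPM to 116 and 99.2 CPM. Slit1, a secreted ligand of Robo receptors, rose from 3.83 and 6.79 CPM to 129.7 and 109 CPM. When Ngn3-low library 2 was left out 3 of these 18 rose and 4 fell, and when Ngn3-high library 2 was, 4 rose and 5 fell. The endothelial Robo4 fell by 6.15. Of 20 tested Eph receptors and ephrins 7 rose (3 without Ngn3-low library 2) and 9 fell (median -0.36). In the main fit the Eph and ephrin shares were 35% risen and 45% fallen. Epha2, an epithelial Eph receptor, fell from 10.02 and 15.6 CPM to 1.43 and 0.749 CPM, and Efnb2 from 25.01 and 25.5 CPM to 6.27 and 5.83 CPM. Semaphorins, plexins and neuropilins fell in 15 of 31 cases (48.4%) and rose in 7 (22.6%), with a median of -0.28. Of the 12 fallen members at 10 CPM or more, 4, Plxnc1 among them, were hardly read in single Ngn3-low cells.

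Of 40 tested voltage-gated and related channel genes 28 rose and 5 fell, with a median log2 fold change of 2.32, and 25 of the 28 were higher in single Ngn3-high cells too. Cacna2d1, an auxiliary subunit of calcium channels, stood at 13.47 and 11.8 CPM against 637 and 780.0 CPM (5.80 ± 0.16 SE). Kcnh6, a potassium channel of the Erg family, stood at 3.40 and 3.13 CPM against 230.1 and 174 CPM, and Kcnma1, the large-conductance calcium-activated potassium channel, at 0.754 and 0.763 CPM against 41.99 and 41.1 CPM. Cacna1a, the pore of P/Q-type calcium channels, rose from 10.99 and 20.1 CPM to 452 and 415 CPM. Potassium channels with a double pore domain were divided, with Kcnk5 at 34.01 and 30.7 CPM against 2.69 and 2.08 CPM and Kcnk1 at 56.1 and 59.9 CPM against 15.8 and 15.4 CPM, while Kcnk3 and Kcnk16 rose (1.797 and 2.86).

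Of 47 tested genes of G protein, cAMP and calcium signalling 28 rose and 11 fell (median 0.97). Gnao1, an inhibitory G protein alpha subunit abundant in neurons, went from 8.95 and 7.78 CPM to 582 and 576 CPM (6.11 ± 0.15 SE), and Gng4, a gamma subunit, from 2.86 and 2.36 CPM to 119.9 and 132 CPM. Atp2a3, which pumps calcium into the endoplasmic reticulum, rose from 16.9 and 14.8 CPM to 944 and 875 CPM, and Camk2b, a calcium-dependent kinase, from 12.5 and 11.52 CPM to 173 and 156 CPM. Rgs16, a brake on G protein signals, rose by 4.10, and its relative Rgs2 fell from 140.0 and 109.8 CPM to 7.29 and 3.83 CPM.

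The monoamine genes rose in 8 of 16 cases and fell in 5 (median 1.39), or in 3 with Ngn3-high library 1 left out. Gch1, which makes the cofactor of tyrosine and tryptophan hydroxylases, went from 7.01 and 8.77 CPM to 112 and 165 CPM. Qdpr, which recycles that cofactor, went from 45.9 and 48.7 CPM to 176 and 185 CPM. Ddc, the decarboxylase of dopamine and serotonin synthesis, went from 17.6 and 16.1 CPM to 55.1 and 66.9 CPM. Th rose from 1.24 and 0.763 CPM to 15.5 and 12.9 CPM in bulk, but had 0 CPM in single Ngn3-high cells. Spr, among the falls, went from 29.9 and 35.6 CPM to 12.9 and 14.3 CPM. Slc17a7, a vesicular glutamate transporter outside that list, was among the 12 largest rises at 0.108 and 0.229 CPM against 33.1 and 28.9 CPM.

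**Figure D4:**
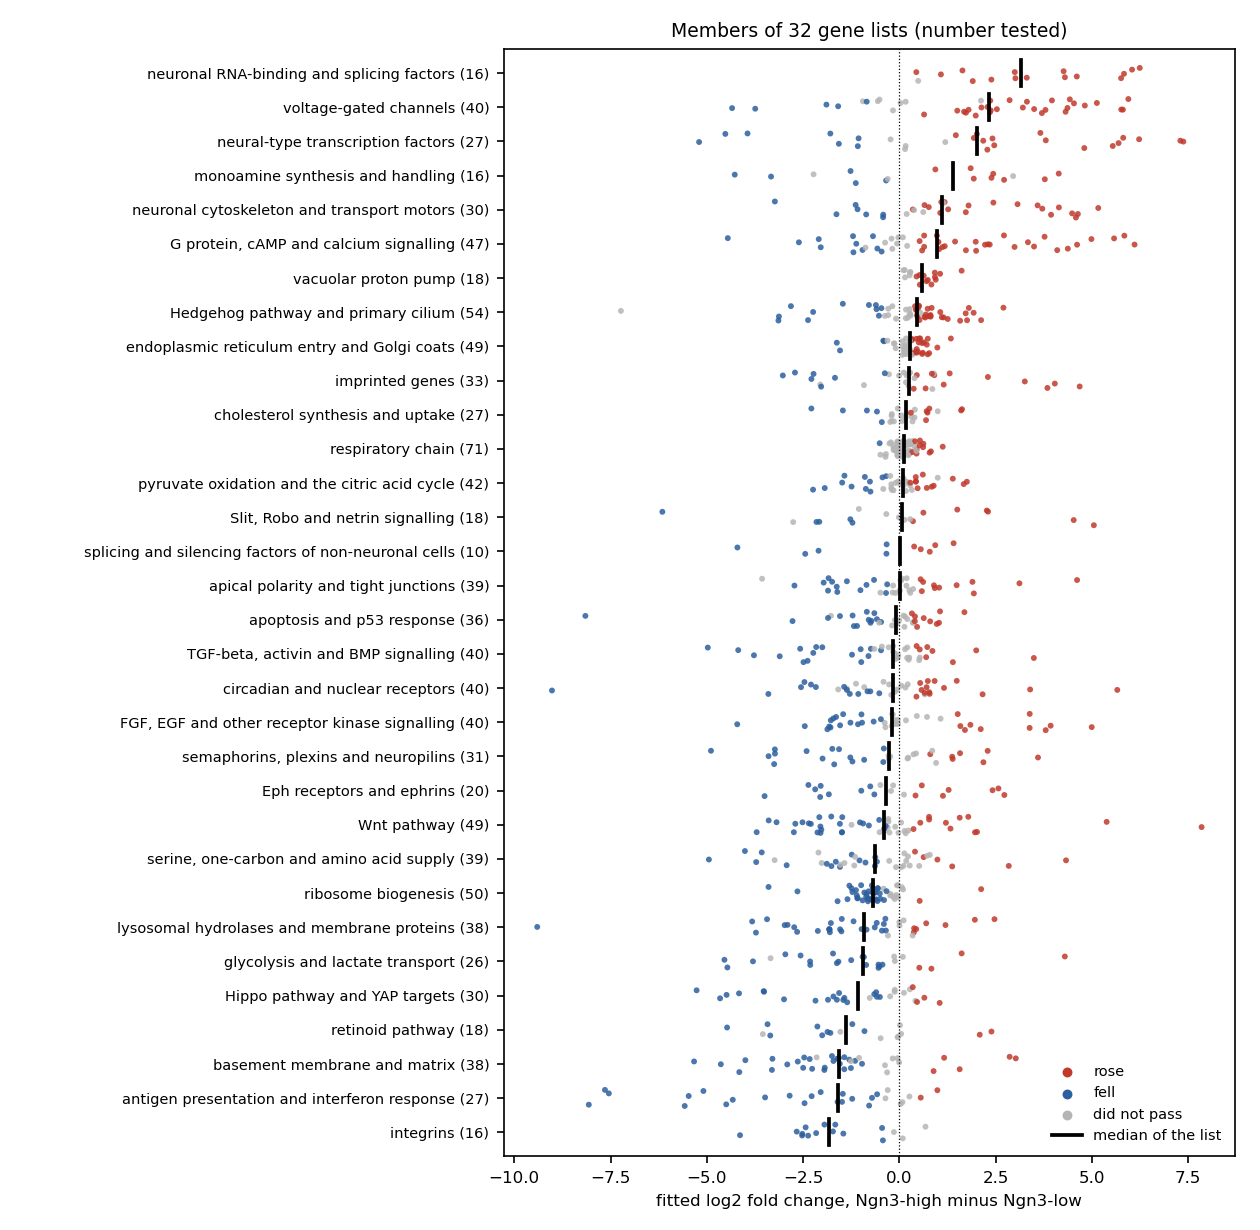
Fitted log2 fold change (x axis) of every tested member of 32 gene lists (y axis, ordered by median, number tested in brackets), with red for members that rose, blue for those that fell, grey for those that did not pass and a black bar at the list's median. The medians run from 3.16 for neuronal RNA-binding proteins to -1.84 for integrins, against -0.01 over all genes tested.

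In Hippo signalling, Yap1 and Wwtr1 (TAZ) carry cues of cell density and attachment to TEAD factors. Of 30 tested members 19 fell and 4 rose (2 with either Ngn3-low library left out; median -1.06), and 15 of the 16 falls that single Ngn3-low cells carried were also lower in single Ngn3-high cells. Yap1 stood at 156 and 162 CPM against 17.02 and 23.1 CPM (edgeR adjusted p = 0.0019). Its targets Cyr61 (636 and 579 CPM against 35.5 and 18.2 CPM) and Ctgf (48.9 and 35.2 CPM against 1.73 and 1.58 CPM) fell as well, and single cells showed the same order for both. Ajuba, an adaptor that inhibits Lats kinases, fell from 56.1 and 68.1 CPM to 5.43 and 5.41 CPM, while the kinase gene Lats1 rose by 1.05 and Lats2 fell by 1.62. Of the 18 falls at 10 CPM or more, 2 were hardly read in single Ngn3-low cells, one of them Axl, a receptor that macrophages also carry.

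Wnt pathway genes fell in 24 of 49 cases and rose in 12 (median -0.39). Wnt7b, a ligand of pancreatic epithelium, fell from 121 and 116 CPM to 9.20 and 8.99 CPM (-3.71 ± 0.14 SE). Fzd7, a receptor, went from 51.4 and 58.7 CPM to 6.15 and 4.16 CPM, and Tcf7l1, a nuclear effector, from 47.2 and 48.4 CPM to 6.99 and 7.32 CPM. Rnf43, which removes Frizzled receptors from the membrane, fell by 2.70. The cadherins of planar polarity were divided, since Celsr3 rose from 4.69 and 5.26 CPM to 237 and 176 CPM and Celsr1 fell by 0.52. Axin2, a common readout of Wnt activity, rose by 0.77 (18.2 and 17.8 CPM against 35.3 and 26.1 CPM).

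Of 40 tested genes of receptor kinase signalling 10 rose (25%) and 16 fell (40%), against 28.1% and 30.1% of all genes tested (median -0.18). Fgfr2, the receptor through which mesenchymal FGF10 keeps pancreatic progenitors dividing, stood at 309 and 319 CPM against 56.1 and 58.3 CPM (-2.46 ± 0.11 SE), and Erbb3 at 226 and 224 CPM against 67.7 and 63.3 CPM. Gfra3, the coreceptor for artemin, stood at 10.1 and 8.77 CPM against 330.3 and 275 CPM (4.99 ± 0.17 SE), beside the rise of its signalling partner Ret given above. Spred3, an inhibitor of Ras signalling, rose from 7.92 and 8.01 CPM to 89.0 and 77.2 CPM, whereas Spred1 fell by 1.87.

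Genes of the TGF-beta, activin and BMP pathways fell in 16 of 40 cases (40%) and rose in 8 (20%), with a median of -0.16. Over all genes tested the shares were 30.1% and 28.1%. Smad3, a transducer of TGF-beta and activin, fell from 152 and 146 CPM to 16.6 and 17.98 CPM (-3.11 ± 0.12 SE), and Tgfbr2, the receptor, from 125 and 112 CPM to 9.56 and 7.66 CPM. Acvr1c, the receptor ALK7, rose from 1.51 and 1.75 CPM to 15.1 and 21.6 CPM. The ligand Tgfb1 fell from 67.4 and 65.5 CPM to 1.85 and 2.41 CPM, and single Ngn3-low cells had 0.0928 CPM of it. The retinoid list fell in 9 of 18 cases (50%) and rose in 2 (11.1%), with a median of -1.38. Rxrg, a retinoid X receptor, stood at 13.8 and 13.1 CPM against 0.478 and 0.749 CPM, with 28 of 49 single Ngn3-low and 0 of 59 single Ngn3-high cells at 10 CPM or more. Rbp4, the secreted retinol carrier, rose from 82.8 and 66.7 CPM to 379 and 405 CPM.

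Hedgehog and primary cilium genes rose in 29 of 54 cases and fell in 11 (median 0.45). Dync2h1, the retrograde motor of the cilium, was up from 46.8 and 53.3 CPM to 157 and 182 CPM and Rfx2, a factor of ciliary genes, from 5.07 and 6.26 CPM to 40.5 and 32.7 CPM. Gli3, a Hedgehog effector, fell from 13.3 and 14.6 CPM to 3.11 and 2.75 CPM. Pkhd1, the fibrocystin gene of duct cilia, fell from 122 and 126 CPM to 17.6 and 17.6 CPM.

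Of 38 tested matrix genes 25 fell and 5 rose (median -1.56), and all 13 calls among the 16 tested integrins were falls (median -1.84). Frem2, of the embryonic basement membrane, stood at 351 and 316 CPM against 37.9 and 29.8 CPM. Sdc4, a cell surface proteoglycan, stood at 150.04 and 145 CPM against 7.35 and 9.32 CPM (-4.16 ± 0.16 SE), with 49 of 49 single Ngn3-low and 6 of 59 single Ngn3-high cells at 10 CPM or more. Itga5, a fibronectin receptor subunit, fell from 64.6 and 61.5 CPM to 12.6 and 9.15 CPM, and Itgb6 from 27.7 and 26.01 CPM to 4.24 and 6.24 CPM. Of the falls at 10 CPM or more, 4 of 22 matrix genes and 3 of 9 integrins were hardly read in single Ngn3-low cells. Spock2, a secreted proteoglycan, went the other way, from 46.6 and 41.1 CPM to 375 and 339 CPM.

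Apical polarity and tight junction genes were divided, with 11 rises and 13 falls among 39 (median 0.01). These shares (28.2% and 33.3%) were near those of all genes tested (28.1% and 30.1%). Cldn3 fell from 130.0 and 124 CPM to 36.7 and 28.2 CPM, while Cldn4, another claudin of tight junctions, rose from 142 and 137 CPM to 559 and 483 CPM. Cdhr1, a cadherin-related protein known from photoreceptors, rose from 1.89 and 1.60 CPM to 41.4 and 45.4 CPM.

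Glycolytic genes fell in 18 of 26 cases and rose in 4 (median -0.94). Hk1, a high-affinity hexokinase, stood at 20.2 and 21.7 CPM against 1.13 and 0.583 CPM, but had 1.21 CPM in single Ngn3-low cells, under 10% of its bulk level. Slc16a1, a monocarboxylate transporter kept low in mature beta cells, fell from 35.03 and 34.5 CPM to 2.03 and 0.999 CPM (-4.47 ± 0.33 SE), and 15 of 49 single Ngn3-low and 0 of 59 single Ngn3-high cells reached 10 CPM. Ldhb, a lactate dehydrogenase, fell from 26.2 and 25.4 CPM to 4.96 and 5.41 CPM.

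Pyruvate and citric acid cycle genes rose in 12 of 42 cases and fell in 11 (median 0.09). Their shares of 28.6% and 26.2% were near the 28.1% and 30.1% of all genes tested. Mpc1, of the mitochondrial pyruvate carrier, rose from 26.4 and 24.5 CPM to 65.4 and 67.7 CPM. Suclg2, the GTP-forming succinyl-CoA ligase subunit, fell from 122 and 127 CPM to 24.1 and 28.6 CPM. Of 71 respiratory chain genes 11 rose (15.5%) and 1 fell (1.41%), with a median of 0.11. Both shares were under those of all genes tested. With the replicate number as a block 17 rose, and without Ngn3-low library 2, 5 did. No member (0) fell when Ngn3-low library 1 or Ngn3-high library 2 was left out, and 2 fell when either of the others was. Cholesterol genes rose in 7 of 27 cases (25.9%) and fell in 5 (18.5%), with a median of 0.16. Their share of rises was near that of all genes tested, and the falls were fewer with Ngn3-low library 1 left out.

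Serine and one-carbon supply fell in 15 of 39 cases (38.5%) and rose in 6 (15.4%), against 30.1% and 28.1% of all genes tested (median -0.64). Phgdh, the first enzyme of serine synthesis, stood at 205 and 194 CPM against 17.1 and 16.3 CPM (-3.57 ± 0.26 SE), and Psat1, the next enzyme, at 63.2 and 70.6 CPM against 4.42 and 5.83 CPM. Shmt1, which passes the carbon of serine to folate, stood at 48.3 and 45.7 CPM against 2.27 and 3.66 CPM. Slc38a5, a transporter of serine, glycine and glutamine, rose from 144 and 107 CPM to 2653 and 2398 CPM (4.33 ± 0.18 SE), with 53 of 59 single Ngn3-high cells at 10 CPM or more against 5 of 49 Ngn3-low cells. Sesn2, a leucine sensor, rose from 27.9 and 23.2 CPM to 187 and 179.9 CPM.

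Of 50 tested ribosome biogenesis genes 37 fell and 2 rose (median -0.68), and all 37 were also lower in single Ngn3-high cells. Myc stood at 46.9 and 35.7 CPM against 4.72 and 2.996 CPM, and Mycn at 24.5 and 22.9 CPM against 4.48 and 2.996 CPM, while Mycl of the same family rose from 28.9 and 31.7 CPM to 134 and 129.6 CPM (2.12 ± 0.12 SE). Dkc1, which modifies ribosomal RNA, fell from 76.3 and 72.2 CPM to 22.4 and 26.5 CPM.

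On the secretory path, 22 of 49 genes of endoplasmic reticulum entry and Golgi coats rose and 4 fell (median 0.27). Without Ngn3-low library 2, 13 rose, and 1 or 2 fell without Ngn3-low or Ngn3-high library 1. All 12 calls among the 18 tested genes of the vacuolar proton pump, which acidifies granules and lysosomes, were rises (median 0.58), led by Atp6v0e2 (12.9 and 12.1 CPM against 36.9 and 39.9 CPM). Lysosomal hydrolases and membrane proteins fell in 26 of 38 cases and rose in 7, or in 4 with Ngn3-low library 2 left out (median -0.92). Ctss, a cathepsin of macrophages, fell from 136 and 111 CPM to 0.239 and 0.0832 CPM and had 0.526 CPM in single Ngn3-low cells, and Ctsf, another cathepsin, rose from 49.6 and 44.5 CPM to 277 and 245 CPM. Of the 26 fallen lysosomal genes, 2 were hardly read in single Ngn3-low cells and 21 of the other 24 were lower in single Ngn3-high cells. The whole lysosomal list summed to 8547 and 7314 CPM against 3975 and 3770 CPM in bulk. In single cells its sum was not lower, at 4070 CPM in the Ngn3-low and 4234 CPM in the Ngn3-high group.

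Antigen presentation and interferon genes fell in 20 of 27 cases and rose in 2 (median -1.61), or in 0 or 1 with Ngn3-low library 2 or Ngn3-high library 1 left out. B2m, the light chain of class I molecules, stood at 175 and 139 CPM against 6.57 and 7.41 CPM (-4.50 ± 0.20 SE), and single cells had 112 CPM in the Ngn3-low and 31.02 CPM in the Ngn3-high group. Bst2 went from 40.8 and 35.8 CPM to 2.03 and 1.75 CPM. Of 15 falls at 10 CPM or more, 2 were hardly read in single Ngn3-low cells. Apoptosis and p53 genes rose in 10 of 36 cases (27.8%) and fell in 14 (38.9%), with a median of -0.08. Over all genes tested the shares were 28.1% and 30.1%. Casp8, an initiator caspase, fell from 84.99 and 87.6 CPM to 11.6 and 13.6 CPM, and Bid, its substrate, from 39.1 and 33.4 CPM to 13.7 and 11.2 CPM. Pmaip1, a p53 target, fell by 8.15 and had 0.619 CPM in single Ngn3-low cells against 50.2 and 33.3 CPM in bulk. Without Ngn3-low library 1 or 2 the rises numbered 6 or 5.

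Imprinted genes, expressed from 1 parental copy, rose in 12 of 33 cases (36.4%) and fell in 7 (21.2%), with a median of 0.26. Over all genes tested the shares were 28.1% and 30.1%. Peg10, derived from a retrotransposon, rose from 233 and 202 CPM to 5125 and 6033 CPM (4.68 ± 0.28 SE). Its level was far lower in single cells (0.186 and 74.2 CPM), as was that of Gnas, which encodes the stimulatory G protein and rose from 1146 and 1028 CPM to 5345 and 5346 CPM in bulk (24.3 and 242 CPM in single cells). Zdbf2 rose from 62.1 and 66.2 CPM to 966 and 1138 CPM and Nnat, the neuronatin gene, from 29.3 and 22.4 CPM to 386 and 359 CPM. Slc38a4, an amino acid transporter, fell from 288 and 268 CPM to 56.2 and 62.5 CPM. Leaving out any 1 of the 4 libraries left 3 or 4 falls in this list.

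Circadian genes and nuclear receptors rose in 14 of 40 cases (35%) and fell in 13 (32.5%), with a median of -0.16. Over all genes tested the shares were 28.1% and 30.1%. Vdr, the vitamin D receptor (chromosome 15, 97854427 to 97908296), stood at 2.75 and 3.81 CPM in Ngn3-low cells and at 161 and 165 CPM in Ngn3-high cells, a log2 fold change of 5.66 ± 0.20 SE (edgeR adjusted p = 1.3e-08). In single cells it stood at 1.64 and 123 CPM, with 2 of 49 and 31 of 59 cells at 10 CPM or more. Esrrg, an orphan receptor of oxidative metabolism, rose from 1.67 and 2.90 CPM to 21.6 and 25.7 CPM. The adipocyte and macrophage receptor Pparg had no read in Ngn3-high libraries against 4.47 and 4.35 CPM, at least 42.3-fold lower.

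Of 20 tested trunk and duct markers 12 fell and 4 rose (median -1.83). Onecut1, a factor upstream of Neurog3, fell from 54.4 and 64.1 CPM to 2.09 and 4.08 CPM, Spp1, the osteopontin gene, from 1271 and 1246 CPM to 109 and 119 CPM, and Anxa2 from 179 and 178 CPM to 12.8 and 14.48 CPM. Krt7, a keratin of ducts, rose from 152 and 157 CPM to 564 and 545 CPM and Prom1 from 124 and 124 CPM to 245 and 264 CPM, and both were higher in single Ngn3-high cells. None of the 11 falls at 10 CPM or more was hardly read in single Ngn3-low cells (0 genes). Of 17 tested tip and acinar markers 2 fell and 1 rose (median -2.17). The fit on the 4 libraries alone called 9 falls, as did the fits without either E17.5 library, while 1 fell without either Ngn3-high library. Trunk and duct rises numbered 2 without Ngn3-low library 1.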

How the data were processed

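Bulk RNA was poly(A)-selected from sorted cells and made into strand-specific libraries, per the labels' protocols. Whole-number read counts per gene were deposited by the authors, without normalisation; the submitters' processing notes list HTSeq 0.6.0, TopHat2 2.1.0 with Bowtie2, the build mm10 and DESeq 1.20.0. Overlapping antisense genes and near-identical copies are uncertain, as the counting's strand setting and annotation were not given in the sources used here. Depth was 11957415 to 17760214 reads in genes.

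Of 40824 gene entries (ERCC rows left out), 15684 passed edgeR's expression filter. They were tested in edgeR 4.0.16 (R 4.3.3, limma 3.58.1) with TMM factors and the robust quasi-likelihood test over 6 libraries, with Benjamini-Hochberg adjustment at 0.05. The E17.5 pair was included to estimate the spread, and it also entered the filter and the TMM factors. With the 4 libraries alone 15084 genes were tested. A gene without a read has a floor of 3 counts over the group, 0.0946 CPM (Ngn3-low) or 0.104 CPM (Ngn3-high); it covers counting error only. Single cells were summed per group as CPM, each group being 1 sample, and were not tested. A gene is called hardly read where single WT Ngn3-low cells held under 10% of a bulk Ngn3-low level of 10 CPM or more. The test was checked on simulated counts.

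Members and lists were chosen with earlier results of these data known. The text names 4 check genes, the 12 largest rises and falls at 10 CPM or more, and in each list up to 6 changed members of largest fold with 10 CPM or more and up to 3 changed against its majority, leaving some out for length. Others were chosen after their values were seen: Alb, Axin2, Celsr1, Csf1r, Elavl3, Esrp2, Gap43, Kcnk3, Kcnk16, Lats2, Mrc1, Myt1l, Nova1, Pparg, Ptbp1, Rcor1, Sox4, Sox11, Stmn2 and Tox3. Coordinates and promoters are RefSeq's, build GRCm38.p6. Alternatives included DESeq2 1.42.0, other factors and filters, the replicate number as a block, and leaving out each library.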

Additional observations from a re-analysis of the deposited data

How the results depend on the processing

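The counts of rises and falls stayed within 1.5 times of 4400 and 4725 in every alternative. Leaving out 1 library at a time gave 3393 to 4619 rises and 3931 to 5103 falls. The DESeq2 counts were 4251 and 4455, those with total counts 3937 and 5151, where the median over all genes was -0.09, and those of the 4 libraries alone 4354 and 5052. Requiring 10 CPM in both libraries of 1 group left 1302 rises and 1996 falls of at least 2-fold, with 10799 genes tested. Genes hardly read in single Ngn3-low cells numbered 1060 at a limit of 20% of the bulk level and 243 at 50 CPM in bulk. No named gene changed the sign of its fold change, but the Slit, Robo and netrin list turned from 7 rises and 5 falls to 3 and 4 without Ngn3-low library 2. Named genes lost their call in at most 20 of 315 cases, without Ngn3-high library 1. Deviations of same-numbered libraries correlated at 0.0954 between Ngn3-low and Ngn3-high, 0.111 between Ngn3-low and Ins1-RFP positive and 0.0912 between Ngn3-high and Ins1-RFP positive libraries, not all over 0.1, so the numbers were not taken to pair the libraries. With the replicate number as a block 4579 genes rose and 4840 fell. With 2 libraries per group the spread rests mainly on all 3 groups sharing 1 estimate, and genes under a few counts could not be compared.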

Other observations

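Of 10 immediate early genes singled out after their values were seen, 8 had under 10% of their bulk Ngn3-low level in single cells of the same gate, and Jun and Ier2 did not. Fos, an AP-1 subunit, stood at 1341 and 1268 CPM in bulk Ngn3-low and at 600.4 and 414 CPM in Ngn3-high libraries (edgeR adjusted p = 0.00079), but at 21.6 CPM in single Ngn3-low and 103 CPM in single Ngn3-high cells. Egr1, a zinc finger factor, stood at 920.5 and 894 CPM against 570.4 and 401 CPM in bulk, and at 20.8 and 102 CPM in single cells. For all 8 genes under 10% the direction in single cells was opposite to that in bulk. Atf3 and Fosb were low there, at 0.230 and 5.33 CPM in single Ngn3-high cells. Atf3, a stress-induced factor, had 451 and 482 CPM in bulk Ngn3-low libraries and no read (0 CPM) in single Ngn3-low cells. Jun was lower in Ngn3-high cells in both kinds of data, at 1835 and 1767 CPM against 928 and 718 CPM in bulk and at 259.7 against 73.7 CPM in single cells, as was Ier2 (269 and 257 CPM against 155 and 93.05 CPM in bulk, 172 against 86.9 CPM in single cells). Bulk and single-cell libraries differed in preparation as well as in the cells they held, and what part either had was not tested.

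The heat shock genes Hspa1a and Hspa1b differed more between libraries of 1 group than between groups. Hspa1a stood at 484 and 179 CPM in Ngn3-low and at 208 and 52.3 CPM in Ngn3-high libraries, higher in library 1 of each group, and did not pass (edgeR adjusted p = 0.41). Hspa1b stood at 547 and 185 CPM against 259 and 65.2 CPM.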
